A study of Macaca fascicularis with 21 samples.

Results

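TFAP2A and TFAP2C are the genes of AP-2α and AP-2γ, and their 2 rows were taken by symbol from a table of 30792 genes counted in single cells of cynomolgus monkey embryos. The 1453 cells came from 21 untreated embryos that were grown in vitro from the blastocyst, each in its own well, on Matrigel, a basement membrane gel, and collected on labelled days 11, 12, 13, 14, 16 and 17 (2, 5, 3, 4, 4 and 3 embryos). The labels give a culture stage for 5 embryos (replicate 1 of day 12, and replicates 1 and 2 of both day 13 and day 17) and a developmental stage for 16, and it has not been stated in the sources used here whether the 2 kinds of day begin together. The deposited annotation names 12 cell types, which were read here as 7 families: epiblast (EPI), gastrulating cells (Gast), amnion (AM), primordial germ cells (PGC, the E-PGC label), trophoblast (TE), extraembryonic mesenchyme (EXMC) and endoderm of visceral or yolk sac kind (VE/YE). Extra-embryonic tissue was cut away under the microscope before cells were picked, per the labels' protocols, so the TE cells are those that were left.

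AP-2 proteins bind GC-rich DNA as dimers, through a helix-span-helix domain that the members of the family share, and members can pair with each other. TFAP2C is known as an early regulator of trophectoderm and trophoblast stem cells and, in primates, as a gene that primordial germ cells switch on with SOX17 and PRDM1. TFAP2A is known for its roles in neural crest, surface ectoderm and the skin, and both genes are widely used as markers of trophoblast and, in primate embryos, of amnion. CITED proteins, p300 and CBP serve AP-2 factors as coactivators, whereas KCTD1, KCTD15 and WWOX are known to restrain them.

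Single cells held 3376 to 483669 counts with a median of 61090, and an embryo held 2540816 to 11857191 counts in 22 to 88 cells. Counts were summed per embryo and family, and the embryo was the replicate. Levels are counts per 1000000 counts (CPM) of these sums after TMM scaling, each a count of 3′ ends. CPM of annotated labels, single cells, pooled counts and summed markers are without this scaling. So are the counts of embryos in which a gene was higher in 1 of the families compared. The capture of a 3′ end differs from gene to gene, so the level of each gene is compared between families and days. Where counts of both genes are set against each other, in cells or as a ratio, only the difference of that balance between families can be read, not which gene is more expressed. The authors named the cell types from the same expression values, so contrasts between types describe these types and give their names no separate support. Markers listed for each family were compared by their CPM over all counts of a family's cells pooled. The highest pooled level stood in its own family for 7 of 7 TE, 8 of 8 VE/YE, 5 of 5 AM, 5 of 6 PGC, 5 of 6 EXMC and 3 of 6 EPI markers. It did so for 1 of 6 Gast markers, so the gastrulation markers do not set the cells labelled Gast apart from all other families. Their summed level was 98.3 to 180 CPM in Gast up to day 14 and 26.1 to 312 CPM from day 16. In EPI it was lower, at 0 to 77.0 and 0.588 to 18.7 CPM, whereas the ranges of VE/YE, PGC, AM and EXMC overlapped that of Gast.

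TFAP2A gave 18226 counts in 772 of 1453 cells (53.1%), and 82.1% of these counts lay in TE cells. TFAP2C gave 6841 counts in 620 cells (42.7%), with 69.0% of them in TE cells. TFAP2A was highest in TE at 335.9 ± 217 CPM (SD, n = 16 embryos) and next in AM at 212 ± 127 CPM (n = 10). In PGC its level was 72.1 ± 58.2 CPM (n = 3), in Gast 25.9 ± 14.6 CPM (n = 7), in EXMC 21.9 ± 15.8 CPM (n = 19), in EPI 16.9 ± 26.6 CPM (n = 14) and in VE/YE 8.66 ± 8.71 CPM (n = 14). TE and AM lay within 1 SD of each other, AM stood above PGC by more than 1 SD, and from PGC down each family lay within 1 SD of the next. TFAP2C followed another order, with PGC first at 190.6 ± 56.2 CPM, then TE at 114.5 ± 74.9 CPM and AM at 82.2 ± 44.7 CPM. It stood at 21.9 ± 13.4 CPM in Gast, 18.1 ± 12.5 CPM in EPI, 8.86 ± 12.6 CPM in VE/YE and 7.57 ± 7.78 CPM in EXMC. Neighbours in this order lay within 1 SD of each other, apart from the step from PGC to TE and the step from AM to Gast.

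**Figure D1:**
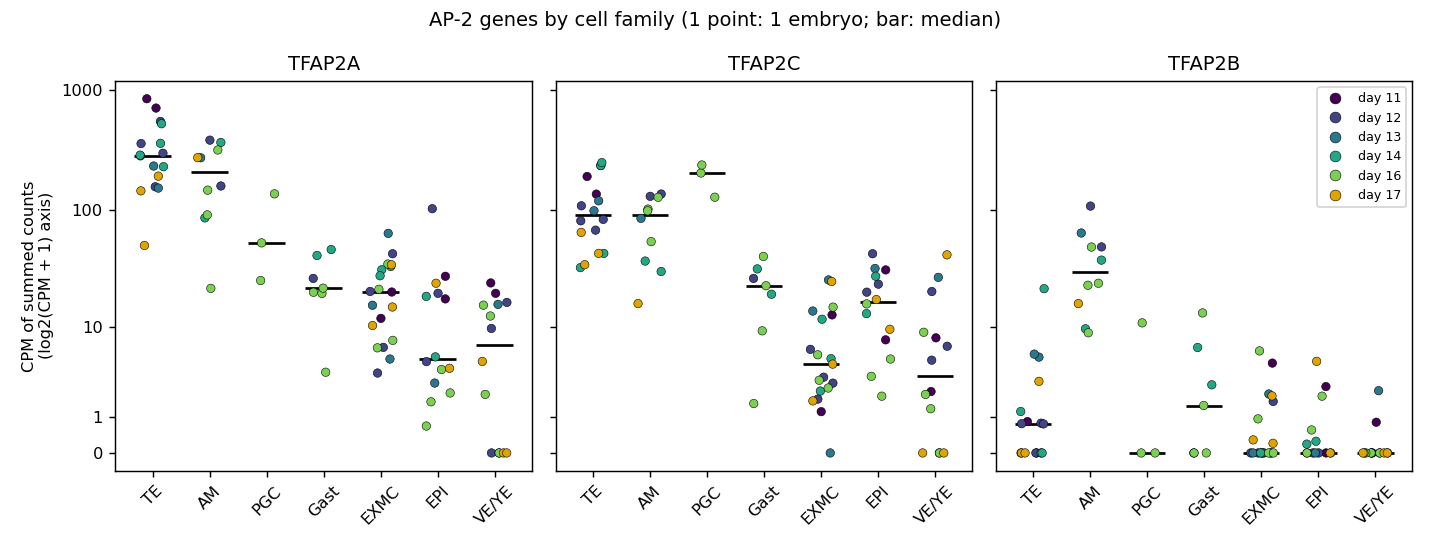
CPM of TFAP2A, TFAP2C and TFAP2B (vertical, log2(CPM + 1) axis) in each cell family (horizontal); a point is the summed cells of 1 embryo, its colour the labelled day, and the bar the median over embryos. TFAP2A is highest in TE and AM, TFAP2C in PGC, TE and AM, and TFAP2B in AM, where its 10 sums run from 8.84 to 109 CPM.

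In the trophoblast both genes were higher than in epiblast or mesenchyme of the same embryo wherever both were summed. TFAP2A ran from 50.8 to 843 CPM in TE with a median of 286 CPM, and TFAP2C from 33.0 to 250 CPM with a median of 91.6 CPM. The lowest TE values lay within the range of other embryos' EPI, which reached 103 CPM for TFAP2A and 43.3 CPM for TFAP2C. In the 10 embryos that held TE and EPI sums, both genes were higher in TE than in EPI of the same embryo in 10 of 10. In edgeR's quasi-likelihood test with the embryo as a block, TFAP2A was 4.72 ± 0.52 log2 units higher in TE (standard error, Benjamini-Hochberg adjusted p = 1.73e-05) and TFAP2C 2.63 ± 0.32 higher (adjusted p = 2.79e-06). That test called 43.6% of all genes, 20.9% higher and 22.7% lower, so a call between these families is a common event and the size of the TFAP2A difference says more than the call. Against EXMC, the other extraembryonic family, both genes were higher in TE in 14 of 14 embryos that held both.

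In TE the level of TFAP2A fell with the labelled day. On day 11 its levels were 706 and 843 CPM, and on day 12 they were 359, 284, 547, 299 and 157 CPM. They were 153 and 234 CPM on day 13, and 231, 361, 288 and 523 CPM on day 14. On day 17 they were 145, 193 and 50.8 CPM. Both day 11 embryos lay above the other 14, and the 3 day 17 embryos lay within or below the range of the day 13 pair, whereas the days between overlapped widely. The slope was −0.30 ± 0.08 log2 units per day (edgeR quasi-likelihood test, adjusted p = 0.0142), in a test that called 14.9% of all genes, 8.07% rising and 6.78% falling. The call was lost among the developmental labels alone (−0.41 per day, adjusted p = 0.0806), with the label type as a covariate (−0.27, adjusted p = 0.0557), with at least 10 cells per sum (−0.27, adjusted p = 0.132) and in days 11 to 14 alone (−0.28, adjusted p = 0.407). It held in the 16 fits that each left out 1 embryo, with slopes between −0.37 and −0.26.

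TFAP2C in TE was 137 and 191 CPM on day 11 and 109, 81.8, 236, 84.0 and 68.3 CPM on day 12. It was 120 and 99.3 CPM on day 13, 43.5, 236, 33.0 and 250 CPM on day 14, and 65.4, 43.6 and 34.9 CPM on day 17. The day 14 embryos fell into a low pair (replicates 1 and 3) and a high pair (replicates 2 and 4), and the day 17 embryos lay below all 9 of days 11 to 13. In day 17 replicate 3 all 11 TFAP2C counts came from 1 of 5 cells. Its slope of −0.21 ± 0.10 per day did not pass the edgeR test (adjusted p = 0.181). The late TE cells also differed in their markers. The summed level of the 7 TE markers in TE was 6784 to 19177 CPM up to day 14 and 804 to 1112 CPM on day 17, and that of the 6 EXMC markers was 37.2 to 631 CPM up to day 14 and 397 to 1369 CPM on day 17. The part of these differences in the fall of TFAP2A was not tested. On day 16 only 3 TE cells were annotated, with 22 TFAP2A counts and 1 TFAP2C count, too few for a sum.

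**Figure D2:**
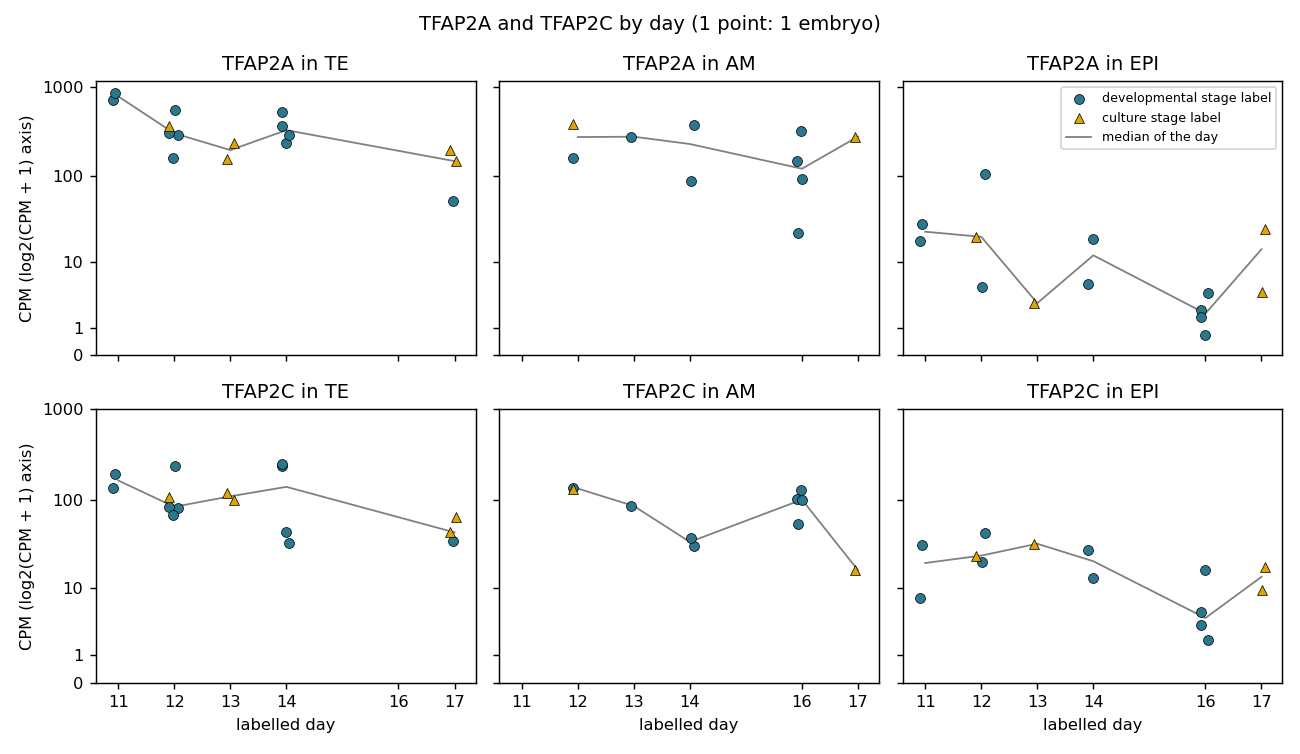
CPM of TFAP2A (top) and TFAP2C (bottom) on a log2(CPM + 1) axis against the labelled day in TE, AM and EPI; a point is 1 embryo, circles carry a developmental and triangles a culture stage label, and the grey line joins the medians of the days. In TE both TFAP2A points of day 11 (706 and 843 CPM) lie above the others, while AM shows no order with day.

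In the amnion, the thin epithelium that closes over the epiblast, both genes were also high. TFAP2A in AM was 383 and 160 CPM on day 12, 274 CPM on day 13, 367 and 86.5 CPM on day 14, 147, 317, 91.7 and 21.9 CPM on day 16 and 274 CPM on day 17. TFAP2C in the same sums was 131 and 137, then 85.7, then 30.6 and 37.5, then 103, 128, 99.2 and 54.7, and then 16.1 CPM. The AM sums rest on few cells, since 1 cell gave 38.1% to 90% of the TFAP2A counts of a sum and 25.3% to 100% of its TFAP2C counts. In day 16 replicate 4 all 20 TFAP2C counts came from 1 of 8 cells, and the day 17 value of TFAP2C is 1 count. Neither series was ordered by day, and the slopes of −0.15 ± 0.16 for TFAP2A and −0.14 ± 0.15 for TFAP2C were smaller than their standard errors (edgeR, adjusted p = 0.799 and 0.780). That test called 0.687% of genes over 10 sums of 3 to 12 cells. Each gene was higher in AM than in EPI of the same embryo in 9 of 9 embryos. TFAP2A was 4.34 ± 0.79 log2 units higher (edgeR quasi-likelihood test, adjusted p = 0.00821) and TFAP2C 2.60 ± 0.51 (adjusted p = 9.56e-04), where 8.70% of genes were called, 3.14% higher and 5.56% lower. Without the day 16 embryos, which left 5, both calls were lost, at 3.32 (adjusted p = 0.126) for TFAP2A and 1.41 (adjusted p = 0.139) for TFAP2C.

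TE and AM could be compared within 5 embryos. TFAP2A was 0.37 ± 0.40 log2 units higher in TE (edgeR, adjusted p = 0.608), and higher in TE in 2 of the 5. TFAP2C was 1.04 ± 0.58 higher in TE (adjusted p = 0.257), and higher in 3 of the 5. With more cells required per sum its sign turned (−0.69). That fit kept only replicates 1 and 2 of day 12, the 2 embryos in which TFAP2C was lower in TE. The test called 14.6% of genes, and missing its threshold does not show that the families hold the same level. The TE markers were not absent from AM cells: their summed level in AM was 624 to 1707 CPM up to day 14 and 89.6 to 691 CPM from day 16. Among them, GATA3 and KRT7 are also on the list of amnion genes used below, and GATA3 averaged 184 CPM in AM. The part of the TE marker transcripts in the AM levels of TFAP2A and TFAP2C was not tested.

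TFAP2B was higher in amnion than in trophoblast of the same embryos. This gene, which is known for its roles in neural crest, kidney and limb, gave 453 counts in 91 cells and stood at 39.2 ± 30.7 CPM in AM, against 2.48 ± 5.45 CPM in TE. In the 5 embryos with both families it was higher in AM in 5 of 5, with 63 counts in 23 AM cells and 3 counts in 139 TE cells. The ratio of these summed levels was 176, with a 95% exact counting interval from 57.5 to 876 that covers counting error only. Those 5 embryos held few of the TE counts of TFAP2B: over all cells it stood at 32.3 CPM in AM and 1.95 CPM in TE, and TE of day 14 replicate 1, at 21.8 CPM, lay above 3 of the 10 AM sums. It was also higher in AM than in EPI in 9 of 9 embryos, by 5.63 ± 0.79 log2 units (edgeR, adjusted p = 1.08e-05). The amnion labels differed in it. On day 16, in replicates 1, 3 and 4, TFAP2B was 1.41, 0 and 0 CPM in L-AM1 (8, 4 and 4 cells). In L-AM2 it was 30.5, 43.6 and 84.1 CPM (4, 7 and 4 cells, with 13, 31 and 18 counts). This difference was not tested, and how many other genes separate the 2 labels in this way was not counted. TFAP2A in the same embryos was 79.2, 112 and 16.9 CPM in L-AM1 and 324, 60.5 and 18.7 CPM in L-AM2, and these ranges overlapped. TFAP2C was 95.4, 106 and 0 CPM in L-AM1 and 91.5, 80.2 and 93.4 CPM in L-AM2. TFAP2D gave 193 counts and TFAP2E 26 counts in all cells. TFAP2D was 3.61 ± 0.85 log2 units lower in TE than in EPI (edgeR, adjusted p = 0.00228), and TFAP2E passed no filter in the comparisons of types.

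Primordial germ cells are the founders of eggs and sperm, and 18 cells carried the label, all on day 16. Sums of 5, 7 and 5 cells in replicates 2, 3 and 4 held TFAP2C at 205, 238 and 129 CPM and TFAP2A at 25.6, 53.4 and 137 CPM. TFAP2C was high in each of the 3 embryos, whereas TFAP2A in replicate 4 lay well above the other two. In EPI of the same embryos TFAP2C stood at 4.97, 1.94 and 3.29 CPM and TFAP2A at 2.13, 3.89 and 1.65 CPM, so that both genes were higher in PGC in 3 of 3. TFAP2C was 5.87 ± 0.80 log2 units higher than in EPI (edgeR quasi-likelihood test, adjusted p = 8.63e-11), in a test that called 3.58% of genes, 1.33% higher and 2.25% lower. TFAP2A was 4.50 ± 1.25 higher (adjusted p = 0.0133), and this call was lost without day 16 replicate 3 (5.01, adjusted p = 0.167) or replicate 4 (3.69, adjusted p = 0.245). The sums rest on few cells, since 1 cell gave 72.1%, 72.2% and 53.3% of the TFAP2C counts of replicates 2, 3 and 4, and 69.2%, 51.9% and 75% of the TFAP2A counts.

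In single germ cells TFAP2C had a count in 16 of 18 cells (88.9%) and a median of 149 CPM, and TFAP2A had one in 9 (50.0%) with a median of 4.83 CPM. TFAP2C counts exceeded TFAP2A counts in 13 of the 18, TFAP2A counts exceeded TFAP2C counts in 4, and 1 cell had neither. The same order, more TFAP2C than TFAP2A counts, held in 12 of 82 AM cells, 60 of 380 TE cells and 81 of 304 EPI cells. The opposite order held in 59 AM, 304 TE and 60 EPI cells. Cells of those 3 families span several days, whereas all germ cells are of day 16. The highest TFAP2A level, 401 CPM, stood in a cell of replicate 4 with no TFAP2C count, and the highest TFAP2C level, 677 CPM, in the single cell of replicate 1, which had no TFAP2A count. Against AM of the same 3 embryos, TFAP2C was higher in PGC in 3 of 3, by 1.06 ± 0.64 log2 units (edgeR, adjusted p = 0.669), and TFAP2A in 1 of 3, by −0.72 ± 0.90 (adjusted p = 0.962), in a test that called 2.28% of genes. Neither passed the test. Summed levels in the germ cells were 9.44 to 74.0 CPM (median 40.4) for 5 AM markers and 30.2 to 192 CPM (median 167) for 7 TE markers. In EPI from day 16 on they were 104 to 217 CPM (median 134) and 38.9 to 383 CPM (median 68.8). The AM markers thus lay below EPI, whereas the TE markers overlapped it with a higher median. In the 18 germ cells 1 of 5 AM markers (WNT6) and 2 of 7 TE markers (CCR7 and DLX3) had no count, and the rest had counts. GATA3, a TE marker, averaged 49.5 CPM in PGC, against 14.7 CPM in EPI of all days and 428 CPM in TE.

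The epiblast, the source of the embryo proper, held little of either gene. TFAP2A in EPI was 17.7 and 27.8 CPM on day 11, 19.8, 103 and 4.68 CPM on day 12, 2.78 CPM on day 13 and 5.22 and 18.7 CPM on day 14. It was 0.669, 2.13, 3.89 and 1.65 CPM on day 16 and 24.2 and 4.00 CPM on day 17. The 4 day 16 embryos were among the lowest, and the high value of 103 CPM in day 12 replicate 2 rests on 8 of 12 cells, of which 1 gave 47.3% of 74 counts. TFAP2C was 7.60 and 31.5 CPM on day 11, 23.8, 43.3 and 20.3 on day 12, 32.4 on day 13 and 27.8 and 13.2 on day 14. It was 16.1, 4.97, 1.94 and 3.29 CPM on day 16 and 17.5 and 9.51 CPM on day 17. The 3 lowest TFAP2C values were those of day 16 replicates 2, 3 and 4, and all 6 values from day 16 on lay below 18 CPM.

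Over all 14 EPI sums the slopes missed the threshold, at −0.40 ± 0.18 log2 units per day for TFAP2A (edgeR quasi-likelihood test, adjusted p = 0.237) and −0.28 ± 0.14 for TFAP2C (adjusted p = 0.273), where 3.81% of genes were called. The TFAP2A slope passed among the developmental labels alone (−0.91, adjusted p = 0.0397) and without day 17 replicate 1 (−0.74, adjusted p = 0.0394). Cells labelled postE-EPI held 17.0 CPM of TFAP2A and 19.4 CPM of TFAP2C over all their counts, against 4.35 and 7.96 CPM in cells labelled postL-EPI. The summed level of the 7 TE markers in EPI moved the same way, from 689 to 4136 CPM in the 8 sums up to day 14 to 38.9 to 383 CPM in the 6 later sums, with at most 2 of the 7 markers at 0 in any sum. Their part in the EPI levels of TFAP2A and TFAP2C was not tested.

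Gastrulating cells, mesenchyme and endoderm held lower levels than TE and AM on average. In Gast TFAP2A was 26.7 CPM on day 12, 41.8 and 46.9 CPM on day 14 and 3.64, 20.3, 19.8 and 22 CPM on day 16, higher than in EPI of the same embryo in 7 of 7. The difference was 2.32 ± 0.62 log2 units (edgeR, adjusted p = 0.0591), in a test that called 1.70% of genes, and it was called by DESeq2 (2.41, adjusted p = 7.83e-04) and by edgeR with no filter on low counts (2.28, adjusted p = 0.0383). TFAP2C in Gast was 26.7, then 32.2 and 19.5, then 23.1, 1.56, 9.21 and 41.0 CPM, and it differed from EPI by 0.85 ± 0.64 (adjusted p = 0.619).

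In EXMC TFAP2A ran from 3.57 to 64.2 CPM with a median of 20.4, and TFAP2C from 0 to 25.9 CPM with a median of 4.42. Against EPI of the same 13 embryos TFAP2A differed by 1.15 ± 0.54 log2 units (edgeR, adjusted p = 0.112) and TFAP2C by −1.19 ± 0.60 (adjusted p = 0.137), where 29.7% of genes were called. The 2 differences pointed opposite ways, and each turned on single embryos: TFAP2A was called without day 12 replicate 2 (1.48, adjusted p = 0.0453) and TFAP2C without day 16 replicate 3 (−1.49, adjusted p = 0.0485). Over the days in EXMC the slopes were −0.04 ± 0.12 and 0.06 ± 0.17 (adjusted p = 0.889 and 0.855), where 11.8% of genes were called. TE markers summed to 462 to 3853 CPM in EXMC up to day 14 and to 67.9 to 302 CPM later. In VE/YE TFAP2A ran from 0 to 24.4 CPM and TFAP2C from 0 to 42.3 CPM, where the highest TFAP2C value came from 1 cell of day 17 replicate 3 that held 55 of 55 counts. Their differences from EPI were −0.02 ± 0.87 and −0.80 ± 0.77 (edgeR, adjusted p = 0.990 and 0.489), where 25.0% of genes were called, and both genes were too low in VE/YE for a test with day. The day by family terms over EPI, EXMC and TE, which test whether slopes differ, gave adjusted p = 0.237 for TFAP2A and 0.423 for TFAP2C (edgeR, 6.24% of genes called), so the slope in TE was not shown to differ from those in EPI and EXMC.

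Counts in single cells separate families by the share of cells that hold each gene. Cells were thinned to 20000 counts each, which leaves out shallower cells, and the shares from all counts follow in brackets. TFAP2A was found in 92.1% of TE cells (94.5%), 68.3% of AM cells (84.1%), 53.8% of PGC (50.0%), 21.2% of Gast cells (43.4%), 20.7% of EXMC cells (36.5%), 15.9% of VE/YE cells (26.7%) and 14.2% of EPI cells (31.3%). TFAP2C was found in 69.2% of PGC (88.9%), 66.5% of TE cells (80.8%), 46.7% of AM cells (58.5%), 22.7% of Gast cells (32.5%), 15.4% of EPI cells (33.6%), 14.5% of VE/YE cells (22.8%) and 8.90% of EXMC cells (20.0%). No level of stray RNA was estimated, so stray RNA and low expression were not told apart in the low shares of Gast, VE/YE, EXMC and EPI.

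Both genes were counted in 294 of 380 TE cells, TFAP2A alone in 65, TFAP2C alone in 13 and neither in 8. In AM the 82 cells divided into 45 with both, 24 with TFAP2A alone, 3 with TFAP2C alone and 10 with neither. In PGC TFAP2C alone was as frequent as both, with 8 cells each, against 1 cell with TFAP2A alone and 1 with neither. Among 304 EPI cells 46 had both, 49 TFAP2A alone, 56 TFAP2C alone and 153 neither, and among 485 EXMC cells 54 had both, 123 TFAP2A alone, 43 TFAP2C alone and 265 neither. The balance of cells with 1 of the genes thus lay toward TFAP2A in TE, AM and EXMC compared with PGC and EPI. Among the amnion labels, E-AM cells held TFAP2A in 75% and TFAP2C in 65.0% of 20 thinned cells, L-AM1 in 57.9% and 42.1% of 19, and L-AM2 in 71.4% and 33.3% of 21.

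**Figure D3:**
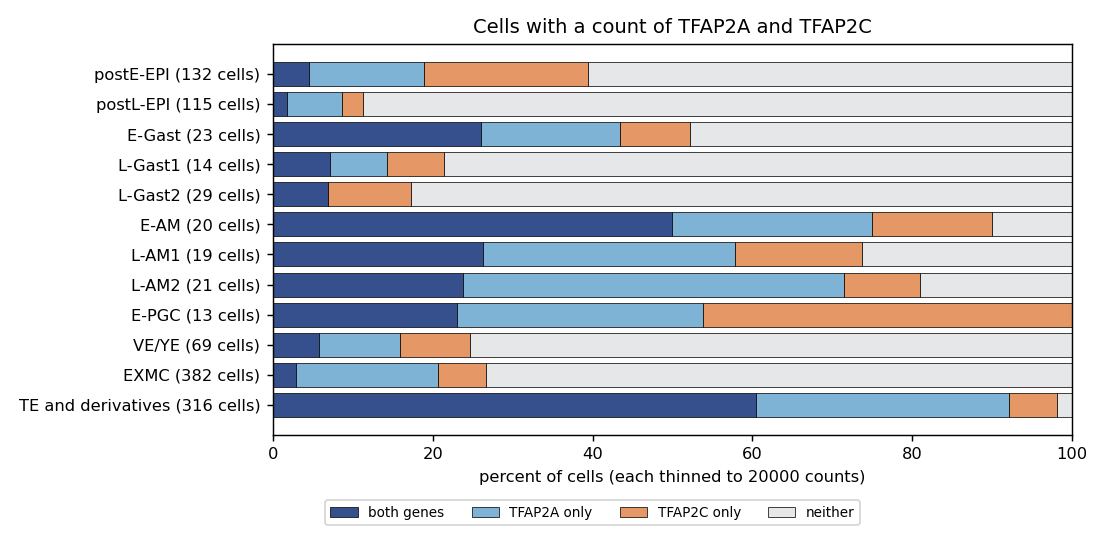
Percent of cells (horizontal) of each annotated type with a count of both genes, of TFAP2A only, of TFAP2C only or of neither, after each cell was thinned to 20000 counts; the number of thinned cells stands in brackets. TE cells are mostly in the class with both genes (60.4%), 46.2% of E-PGC cells have TFAP2C only, and 88.7% of postL-EPI cells have neither.

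The balance of both genes was read as log2 of (TFAP2A + 0.5) over (TFAP2C + 0.5) in the summed counts, whose differences between families do not depend on how libraries are scaled. Its mean was 1.55 ± 0.77 in TE (SD, n = 16), with a range from 0.35 to 3.12, and TFAP2A counts exceeded TFAP2C counts in 16 of 16 embryos. It was 1.84 ± 1.55 in EXMC (18 of 19 embryos), 1.2 ± 1.49 in AM (8 of 10), 0.36 ± 1.78 in Gast (4 of 7), 0.02 ± 2.65 in VE/YE (7 of 14, with 3 of the 14 sums at 0 counts of both genes, so that their value of 0 comes from the added 0.5 alone), −0.81 ± 1.70 in EPI (5 of 14) and −1.67 ± 1.58 in PGC (1 of 3). By these means PGC and EPI had the lowest ratios and EXMC and TE the highest, but the place of EXMC depended on the measure. Another measure was the mean over cells of log2 of (TFAP2A CPM + 1) over (TFAP2C CPM + 1). A cell with neither gene gives 0 in it, as 265 of 485 EXMC cells did, against 8 of 380 TE and 10 of 82 AM cells. By this mean over cells EXMC lay below TE and AM (TE minus EXMC 1.12, exact permutation test, adjusted p = 0.0169, and AM minus EXMC 1.83, adjusted p = 0.0290), where the sums gave −0.12 and −1.41. The part of the cells with neither gene in this was not tested. In the sums the spread was narrowest in TE, where counts were most numerous.

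Of 13 pairs of families held by at least 5 embryos, 2 differed in an exact 2-sided sign-flip permutation test over embryos with Benjamini-Hochberg adjustment. As a mean over cells 6 more pairs passed: TE against EXMC and VE/YE, and AM against EXMC, Gast, VE/YE and EPI. In that mean a cell with neither gene gives 0, so it also carries the share of cells with a count. In the summed counts the ratio was 2.14 ± 1.38 higher in TE than in EPI (SD of the paired differences), in 10 of 10 embryos (exact p = 0.00195, the smallest that 10 pairs allow, adjusted p = 0.0254). This call was lost with more cells per sum (1.79, exact test, adjusted p = 0.125) and among developmental labels alone (1.80, adjusted p = 0.135). Both alternatives keep only some of the 10 embryos, and the ratio was higher in TE in each one kept. With fewer pairs the smallest p that the test allows is larger, so the lost call alone does not show a weaker difference. The ratio was 2.30 ± 2.36 higher in EXMC than in EPI, in 11 of 13 embryos (exact p = 0.00464, adjusted p = 0.0302), and this second call was lost when any of 8 embryos was left out (adjusted p up to 0.0603). As a mean over cells the EXMC difference was 0.76 (exact test, adjusted p = 0.0456). In Gast it was higher than in EPI by 1.44 ± 1.62, in 7 of 7 embryos (exact p = 0.0156, the smallest possible, adjusted p = 0.0677). Between AM and EPI it differed by 1.80 ± 2.48, in 6 of 9 embryos (exact p = 0.0625, adjusted p = 0.135), and between TE and AM by −0.72 ± 1.85 (exact p = 0.438, adjusted p = 0.632). PGC sums came from 3 embryos, too few for this test. The ratio had no detectable relation to the day within EPI, EXMC or TE. Pearson's r was −0.20, −0.09 and −0.22 and Spearman's rho −0.26, −0.08 and −0.31 (permutation tests, p = 0.490, 0.722 and 0.402 for r and 0.368, 0.739 and 0.242 for rho, adjusted p of at least 0.553).

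**Figure D4:**
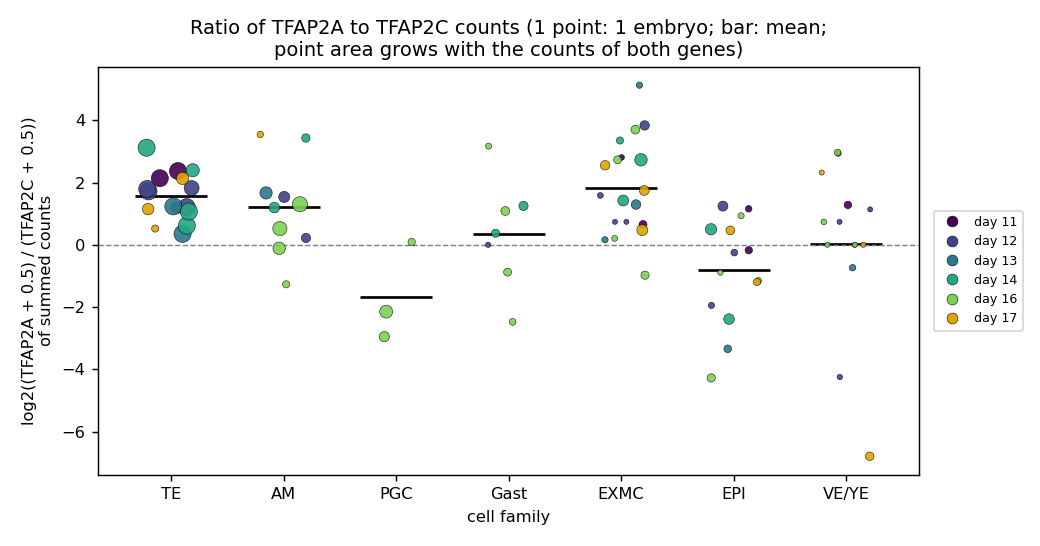
Log2 ratio of TFAP2A to TFAP2C counts (vertical, 0.5 added to each) in each family (horizontal); a point is 1 embryo, coloured by day, its area grows with the counts of both genes, and the bar is the mean. All 16 TE points lie above 0, and 2 of 3 PGC points and 9 of 14 EPI points lie below it.

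Over the 83 sums of all families, the genes most like each member were found by Pearson's r of log2(CPM + 1) among 9667 genes with a mean of at least 10 CPM, as a description, since the sums share embryos and libraries. For TFAP2A they were GATA3 (r = 0.74), a zinc finger regulator of trophoblast, CLDN4 (0.74), a tight junction claudin, TNS3 (0.72), a focal adhesion protein, TFAP2C (0.72) and PVRL4 (0.71), a nectin adhesion molecule. For TFAP2C they were TFAP2A (0.72), CDH3 (0.69), the cadherin of placental and other epithelia, MED12L (0.67), a Mediator subunit, HS6ST3 (0.66), a heparan sulfate sulfotransferase, and C1H1orf115 (0.64). GATA3 averaged 428 CPM in TE and 184 CPM in AM, and 14.7 to 83.8 CPM in the other families. CDH3 averaged 287 CPM in AM, 235 CPM in TE and 28.1 to 102 CPM elsewhere.

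Of 9 listed cofactors and inhibitors 7 could be tested between TE and EPI, of which 1 was higher and 2 lower, with a median difference of 0.02 log2 units against −0.06 over all genes tested. These 3 calls in 7 are near the 43.6% of all genes called in that comparison and are no result about the list. CITED2, a coactivator that bridges AP-2 factors and p300, was 1.93 ± 0.50 higher in TE (edgeR, adjusted p = 0.00555). KCTD15 was 3.23 log2 units lower (−3.23 ± 0.85, adjusted p = 0.00547) and WWOX lower by 0.88 (−0.88 ± 0.19, adjusted p = 0.00121). EP300 and CREBBP, which encode p300 and CBP, differed by 0.15 ± 0.21 and 0.02 ± 0.21 and were not called. Between AM and EPI, where 8.70% of all genes were called, 1 of 7 was higher and 1 lower: KCTD1 by 2.19 ± 0.47 (edgeR, adjusted p = 0.00222) and WWOX by −0.78 ± 0.23 (adjusted p = 0.0331). KCTD1 was also higher in AM than in TE (TE minus AM −2.90 ± 0.72, adjusted p = 0.00526) and CITED2 lower (2.33 ± 0.63, adjusted p = 0.0108). None of 7 was called by edgeR between PGC and EPI, where 3.58% of all genes were called. With day in TE none of 6 was called, beside 14.9% of all genes, which with so few genes is no result about the list.

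The regulators that act beside AP-2 factors were described in the same fits. Of 13 trophoblast regulators tested between TE and EPI, 11 were higher and none lower, beside 20.9% and 22.7% of all genes, with a median of 3.70 log2 units against −0.06 over all genes. GATA2, GATA3, GCM1, the switch to syncytiotrophoblast, and VGLL1, a TEAD cofactor, were 4.22 ± 0.43, 4.98 ± 0.30, 5.09 ± 0.36 and 4.13 ± 0.41 higher. TFAP2A lay among them in size and TFAP2C below these 4. Of 10 tested germ cell regulators 1 was higher in TE and 7 lower, beside the same shares of all genes, with a median of −2.30. With day in TE, 5 of 12 trophoblast regulators fell (GATA2, TEAD4, MSX2, VGLL1 and OVOL1) and none rose, beside 6.78% and 8.07% of all genes, with a median of −0.17 per day against −0.01 over all genes. GATA2 fell by 0.43 per day (−0.43 ± 0.12, adjusted p = 0.0207), beside the −0.30 of TFAP2A, whereas GATA3, the gene most like TFAP2A over the sums, had a slope of −0.07 ± 0.07 (adjusted p = 0.497).

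Between AM and EPI 10 of 14 amnion genes, TFAP2B among them, were higher and none lower, beside 3.14% and 5.56% of all genes, with a median of 4.11 log2 units against −0.30 over all genes. ISL1, a LIM homeodomain regulator, GABRP, a GABA receptor subunit, and GATA3 were 6.12 ± 0.58, 6.91 ± 0.55 and 3.71 ± 0.41 higher (edgeR, adjusted p = 9.47e-09, 3.18e-09 and 6.14e-07). Of 13 trophoblast regulators 3 were higher in AM (GATA3, CDX2 and DLX5) and none lower, beside the same shares. Between PGC and EPI 6 of 13 germ cell regulators were higher and none lower, beside 1.33% and 2.25% of all genes, with a median of 3.12 against −0.40. SOX17, PRDM1 and NANOS3 were 8.20 ± 0.98, 8.31 ± 1.03 and 6.49 ± 0.93 higher (adjusted p = 3.35e-14, 3.68e-13 and 1.29e-09), beside 5.87 ± 0.80 for TFAP2C, and SOX15, KIT and PDPN were also called. Whether these differences exceed that of TFAP2C was not tested.

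Genes reported elsewhere as direct AP-2 targets were called in part in the same contrasts. Of 11 tested between TE and EPI 6 were higher and 1 lower, beside 20.9% and 22.7% of all genes, with a median of 2.19 against −0.06. The steroid enzyme gene CYP11A1, the hormone subunit gene CGA, and the keratin genes KRT8 and KRT18 were 4.56 ± 0.36, 2.92 ± 0.59, 2.39 ± 0.18 and 2.97 ± 0.24 higher, and the receptor gene ERBB2 was lower by 1.78 (−1.78 ± 0.29, adjusted p = 8.94e-05). In AM KRT8 and KRT18 were higher than in EPI by 2.98 ± 0.29 and 3.79 ± 0.47 (edgeR, adjusted p = 5.05e-05 and 0.00171), ERBB2 and ADA were lower, and 6 of 10 were not called, where 8.70% of all genes were. In PGC KRT8 and KRT18 were higher by 1.49 ± 0.45 and 2.30 ± 0.50 (adjusted p = 0.0329 and 3.96e-04), ERBB2 was lower and 6 of 9 were not called, where 3.58% of all genes were. Reads of keratin genes may be shared with near-identical copies, since no counting rule has been given in the sources used here.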

How the data were processed

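Libraries of the 3′ ends of transcripts from hand-picked single cells were aligned with STAR, per the submitters' processing notes, and the deposited table holds whole-number counts per gene and cell. Not given in the sources used here are the counter, its strand rule, the genome build, filters on cells and whether PCR copies were collapsed, so intervals from counts cover counting error only. In the RefSeq annotation, 1 feature of the table within 2000 bases of TFAP2A (LOC102135056, 82 counts) could share reads with it. Cell types and days came from the authors' deposited annotation, and the day of all 1453 cells matched the label of its embryo. Doublets were not searched for, as each cell had been picked by hand.

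Each sum of 1 embryo and family had a minimum of 5 cells for EPI, EXMC and TE and 3 for the others or for a comparison with one of those. Sums were filtered with filterByExpr, scaled by TMM and tested over all genes with edgeR 4.0.16 (glmQLFit robust, glmQLFTest) in R 4.3.3. Calls were made at a p under 0.05 after Benjamini-Hochberg adjustment, and standard errors are the log2 change over the root of F. Day was a number, and types were compared with the embryo as a block. Of the edgeR fits, those of day in TE and of TE against EPI were tried on simulated data. DESeq2 1.42.0, no TMM, no filter, other minimums of cells, label types, day ranges and left-out embryos were alternatives.

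TFAP2A and TFAP2C were given as members. The named genes were the AP-2 family, listed cofactors, regulators and reported targets by their counts, and the 5 genes most like each member. The members and lists were chosen with earlier results of these data known. No sequence is printed, because no sequence of the genes was given and the counts name no build. 1 further gene of the cofactor list is not reported here.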

Additional observations from a re-analysis of the deposited data

Results flagged for a closer look

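Dixon's test was applied to 16 groups, each the 4 or 5 embryos of 1 family and day for 1 of the genes, and it set 2 values apart; chance sets apart about 1 in 20 groups. TFAP2A in Gast of day 16 replicate 1 was 3.64 CPM, below the 19.8 to 22 CPM of the other 3 embryos. TFAP2C in TE of day 12 replicate 3 was 236 CPM, above the 68.3 to 109 CPM of the other 4, in a sum of 6 cells in which TFAP2A, at 547 CPM, was also the highest of the day.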

How the results depend on the processing

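TFAP2A and TFAP2C kept their direction and their side of the threshold in 185 of 220 fits and ratios under alternatives that did not leave out 1 embryo, and in 373 of 405 that did. With more cells per sum, TFAP2A moved to −0.27 per day in TE (adjusted p = 0.132), 1.80 in EXMC against EPI (0.0226) and 0.40 in VE/YE against EPI (0.792), TFAP2C to −0.69 in TE against AM (0.377), and the log2 ratio to 1.79 for TE minus EPI (0.125), 2.39 for EXMC minus EPI (0.125), −0.11 for AM minus Gast and −0.76 for AM minus VE/YE. Among developmental labels alone, TFAP2A gave −0.91 per day in EPI (0.0397), 0.037 in EXMC and −0.41 in TE (0.0806), and the ratio 1.80 for TE minus EPI (0.135), 2.16 for EXMC minus EPI (0.140), −0.35 for AM minus VE/YE and r = 0.029 with day in EXMC. With the label as covariate TFAP2A fell by 0.27 in TE (0.0557), and in days 11 to 14 alone the slopes were −0.28 in TE (0.407) and 0.30 in EXMC. Without day 16, TFAP2A gave 0.0056 per day in EXMC, 0.039 in AM and 3.32 in AM against EPI (0.126), and TFAP2C 1.41 in AM against EPI (0.139) and −1.76 in EXMC against EPI (0.0461). DESeq2 called TFAP2C in EXMC against EPI (−1.30, 0.0383) and TFAP2A in Gast against EPI (2.41, 7.83e-04), which edgeR with no filter also called (2.28, 0.0383). Library size alone gave 0.14 for TFAP2A in VE/YE against EPI. With an offset of 5 the ratio was 0.29 for TE minus EXMC and 1.70 for TE minus VE/YE (0.0254). As a mean over cells of the log2 ratio of CPM + 1, it was 1.12 for TE minus EXMC (0.0169), 1.90 for TE minus VE/YE (0.0169), 1.83 for AM minus EXMC (0.0290), 2.16 for AM minus Gast (0.0290), 2.53 for AM minus VE/YE (0.0290) and 2.85 for AM minus EPI (0.0254). The causes were not tested.

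Leaving out 1 embryo at a time, TFAP2A ranged from −0.74 (without day 17 replicate 1, adjusted p = 0.0394) to −0.21 per day in EPI and from −0.10 to 0.010 in EXMC, and TFAP2C from −0.12 to 0.14 in EXMC. Against EPI, TFAP2A ranged from 0.80 to 1.48 in EXMC (called without day 12 replicate 2), −0.39 to 0.26 in VE/YE and 3.69 to 5.01 in PGC (lost without day 16 replicate 3 or 4), and TFAP2C from −1.49 to −0.92 in EXMC (called without day 16 replicate 3). Against AM, TFAP2A ranged from −0.16 to 0.70 in TE and −2.15 to 0.92 in PGC. The log2 ratio ranged from −0.26 to 0.045 for TE minus EXMC, −0.35 to 0.65 for AM minus VE/YE, 1.91 to 2.66 for EXMC minus EPI and −0.0025 to 1.04 for VE/YE minus EPI.

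The TE difference of both genes from EPI held in every alternative run. Slopes in VE/YE were not fitted because both genes fell below the filter, as did TFAP2C in EXMC among developmental labels and both genes in VE/YE against EPI without the embryo block. No block by replicate number was fitted, since the numbers restart on each day and pair no embryos. The genes called ranged over the settings from 0 to 1232 for day in EPI (442 as reported), 65 to 2732 in EXMC (1303), 17 to 2541 in TE (1813) and 1 to 443 in AM (53), with days 11 to 14 alone the lowest for EPI, EXMC and TE. Against EPI they ranged from 4421 to 7649 for TE (6609), 2730 to 5557 for EXMC (4594), 419 to 1727 for AM (1259), 11 to 717 for Gast (246), 1648 to 3899 for VE/YE (3461) and 129 to 574 for PGC (433). Against AM they ranged from 998 to 2104 for TE (1678) and 60 to 301 for PGC (223), and for day by family from 226 to 1212 (1093). Depth limits PGC (3 embryos), VE/YE and late TE, and thinning to 10000 counts or none moved 13 of 28 shares of cells by more than their interval. PCR copies cannot be told from molecules.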
